A study of Mus musculus with 32 samples.

Results

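Midbrain (Mb) and forebrain (Fb) tissue of normal mouse embryos was compared, as 6 wild-type (WT) Mb libraries against 6 WT Fb libraries. These are the 12 WT libraries of the 32 in the series. They were taken by their labels, which give strain B6C3F1, genotype Wild-type, stage E9.5 (embryonic day 9.5) and the tissue. The other 20 libraries come from mutant embryos of the same stage that lack 2 or 3 of the cell adhesion genes Cdh6, Cdh8 and Cdh11. Their labels are DKO8.11 and DKO6.8 (double knockouts) and TKO6.8.11 (triple knockout). The paper describes the sequenced mutants as having a cranial defect or exencephaly, an open cranial neural tube. They serve here only as a second set of Mb and Fb tissue, which is not normal tissue. The values are FPKM, fragments per kilobase of exon per M mapped fragments, so a level is already relative to gene length and to library depth. Of 48576 gene identifiers, 13344 reached 1 FPKM as their mean in the 12 WT libraries, and these genes were tested. The depth, estimated from the step between low values, was 2.24 to 3.0 M fragments in Fb and 2.395 to 2.92 M in Mb, so a gene near 1 FPKM rests on few fragments.

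The neural tube of the mouse is divided along its length into forebrain, midbrain and hindbrain. The midbrain and the hindbrain meet at the isthmus, a signalling centre that secretes Fgf8 and abuts a ring of Wnt1-expressing cells, and the Engrailed and Pax2/5/8 transcription factors act around it. The forebrain is set up by transcription factors such as Six3 and Rax (anterior neural plate and eye), Emx2 (dorsal telencephalon) and Nkx2-1 (hypothalamus), while the Pax6 domain ends where the forebrain meets the midbrain.

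In this comparison 1102 genes passed the test (limma on log2(FPKM + 1), adjusted p under 0.05), which is 8.26% of the genes tested. Of these, 622 genes (4.66%) were higher in Mb and 480 (3.6%) were higher in Fb. Among the called genes, 429 differed by at least 1 on the log2 scale, 268 of them higher in Mb and 161 higher in Fb. At a log2 difference of at least 2 the numbers were equal, with 47 genes on each side. The FPKM ranges of the 6 Mb and 6 Fb libraries did not overlap for 687 of the 1102 genes, against 746 (5.59%) of all genes tested. All differences below are mean log2(FPKM + 1) in Mb minus Fb, which understates the change of low genes.

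**Figure D1:**
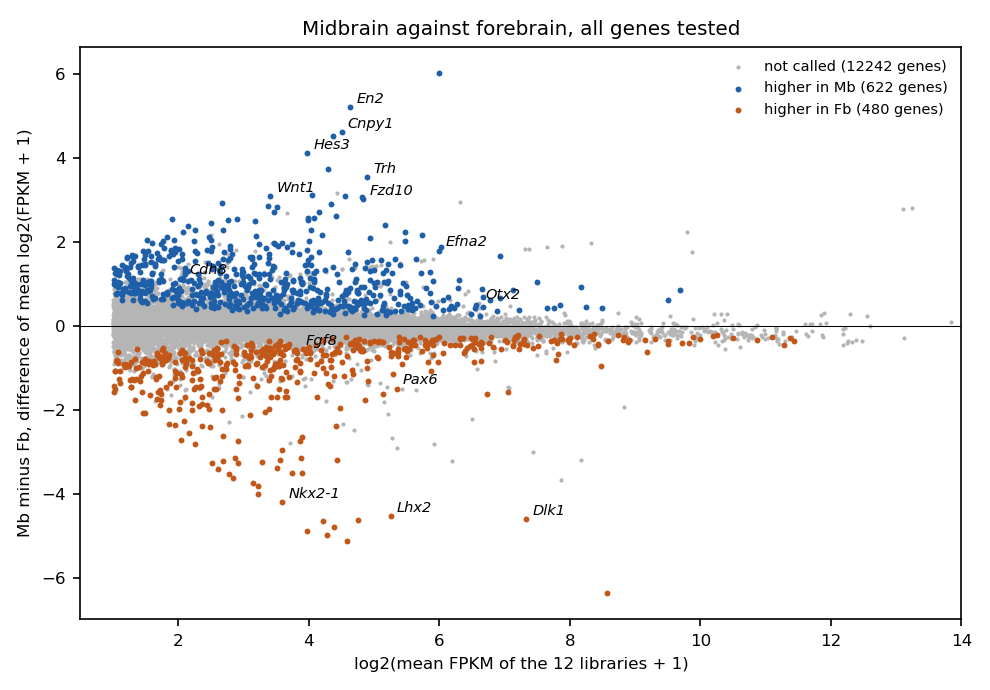
Each point is 1 of 13344 genes, placed by the log2 of its mean FPKM (plus 1) over the 12 WT libraries and by the difference of mean log2(FPKM + 1), Mb minus Fb. The 622 genes called higher in Mb are blue and the 480 called higher in Fb are orange, with named genes such as En2 at 5.20 and Lhx2 at -4.54.

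The labelled tissues carried their defining markers. Six3, Fezf1 and Rax were high in every Fb library and at or near 0 in every Mb library. En1, En2 and Wnt1 were higher in every Mb library than in any Fb library. En1 and En2 were low in WT_Mb_5, at 3.57 and 8.35 FPKM. Hindbrain Hox genes were close to 0 in both tissues. Of 12 Hox and rhombomere genes, 10 stayed under a mean of 1 FPKM, and the list summed to 1.23 to 6.31 FPKM in Mb and 1.78 to 5.41 FPKM in Fb. The list leaves out Gbx2, a gene of the anterior hindbrain, which read 0.79 to 14.1 FPKM in Mb and 0 to 1.1 in Fb. Whether the Mb tissue held some anterior hindbrain was not tested. Replicate numbers run from 1 to 6 in both tissues, and the labels do not say whether a replicate is 1 embryo. The p-values therefore measure the spread between these samples, which may be in part technical. Libraries were not paired by number in the main test. WT_Mb_1 and WT_Mb_5 each stood apart from the other Mb libraries, in different genes, and some results are also given without WT_Mb_1 or WT_Mb_5. Most list counts are given with all 12 libraries only, and some of them change when 1 library is left out.

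Midbrain and isthmus transcription factors were the first group. Of 21 tested, 12 were higher in Mb, 0 were higher in Fb and 9 did not pass, with a median difference of 0.73 against -0.003 over all genes tested. En2 (chr5:28165694-28172166 of GRCm38, plus strand), which patterns the caudal midbrain, read 8.35 FPKM in its lowest Mb library, 51.3 at the median and 74.7 in the highest. In Fb it read 0 to 0.520 FPKM. En1 (chr1:120602418-120607992, plus strand), its paralogue, read 3.57, 41.8 and 59.0 FPKM in Mb and 0 to 0.936 in Fb. The groups did not overlap for either gene, although a single Mb library, WT_Mb_5, lay far below the other 5 in both. The differences were 5.20 (standard error 0.41, adjusted p = 1.98e-06) for En2 and 4.51 (standard error 0.52, adjusted p = 7.44e-05) for En1. Hes3, a repressor that keeps isthmic cells undifferentiated, was higher by 4.12, with 15.9 to 41.5 FPKM in Mb and 0 to 1.62 in Fb. Tal2, needed for midbrain GABAergic neurons, was higher by 2.71 and read 30 ± 6.59 FPKM in Mb (SD, n = 6) and 3.78 ± 1.21 in Fb (SD, n = 6). Pax5 differed by 2.84, Pou3f1 by 1.81, Lmx1b by 1.63 and Pax3 by 1.4. Gbx2, a gene of the anterior hindbrain, differed by 2.01. Pax2 did not pass (difference -0.35, adjusted p = 0.613). Otx2, which marks forebrain and midbrain alike, did not pass the test, with 116 ± 35.2 FPKM in Mb (SD, n = 6) and 77.8 ± 12.7 in Fb (SD, n = 6; adjusted p = 0.120).

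Most Fgf signalling genes of the isthmus did not pass the test. The 2 organizer ligands of the isthmus were present in both tissues, and neither passed the test. Fgf8 read 0, 13.8 and 24.6 FPKM in the lowest, median and highest Mb library and 7.39, 14.8 and 22.5 in Fb (difference -0.57, adjusted p = 0.698). Fgf17 read 0, 6.44 and 20.3 FPKM in Mb and 7.80, 8.39 and 17.2 in Fb (adjusted p = 0.584). The zeros are both in WT_Mb_5. Without that library the Fgf8 difference was 0.08 (adjusted p = 0.941) and the Fgf17 difference was -0.14 (adjusted p = 0.900). Of the 22 genes listed for this pathway, 5 were higher in Mb and 0 were higher in Fb, with a median of 0.18. The 5 were Cnpy1, which acts in Fgf receptor maturation (4.61), the receptors Fgfr3 (1.57) and Fgfr2 (0.85), the ligand Fgf15 (0.81) and the feedback inhibitor Spred2 (0.37). Cnpy1 reached 27.2 to 72.8 FPKM in 5 Mb libraries and 6.15 in WT_Mb_5, against 0.184 to 1.24 in Fb. The Fgfr2 call was lost without WT_Mb_5 (difference 0.69, adjusted p = 0.0628).

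**Figure D2:**
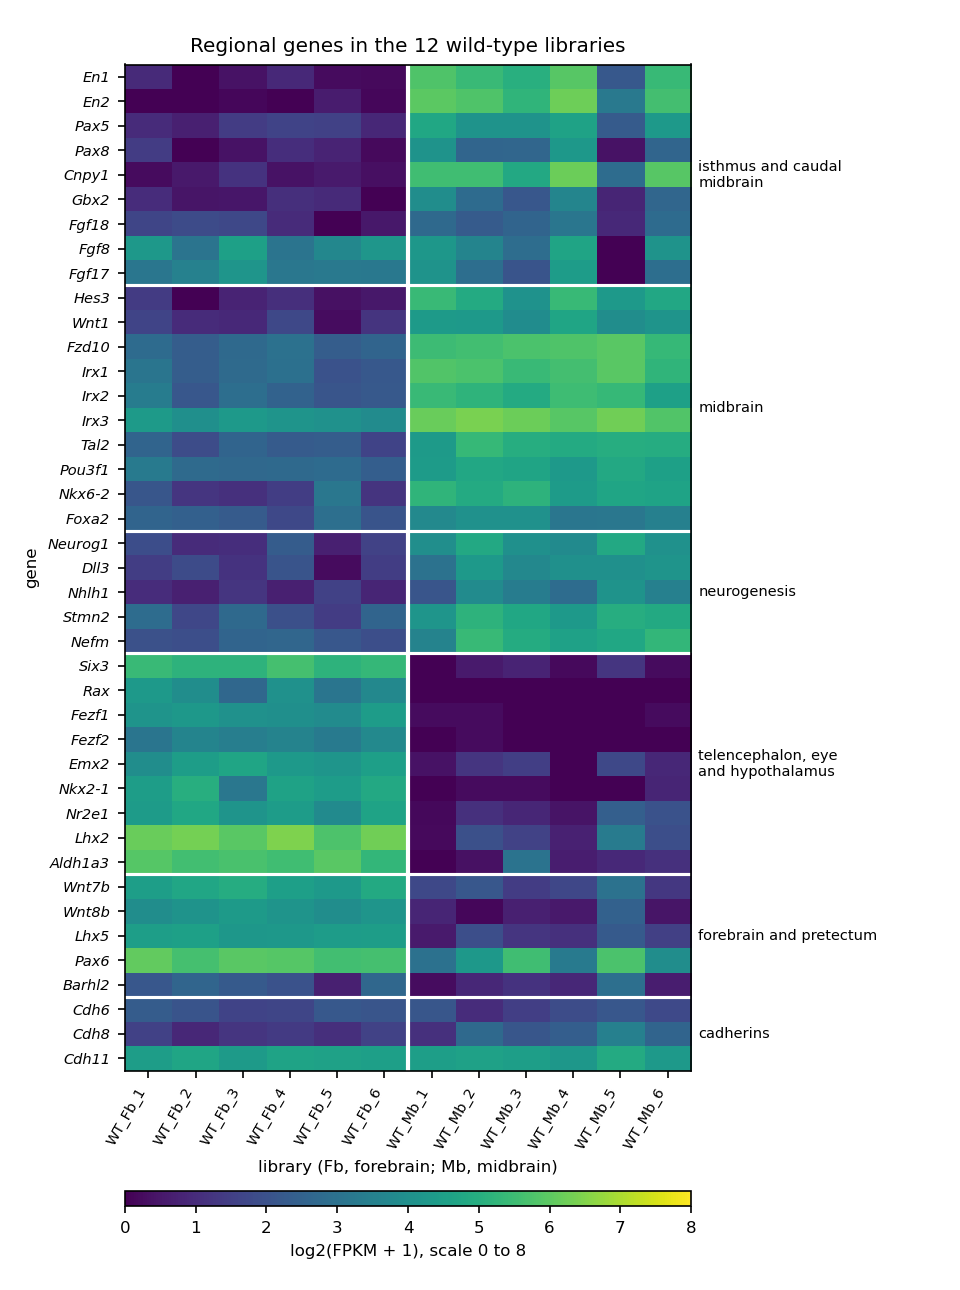
The color gives log2(FPKM + 1) on a scale from 0 to 8 for regional genes (rows, grouped by region or role) in the 6 WT Fb and 6 WT Mb libraries (columns). Six3, Rax and Fezf1 fill the Fb block and are dark in every Mb library, while the caudal genes En1, En2, Cnpy1, Fgf8 and Fgf17 are darker in WT_Mb_5 than in the other 5 Mb libraries.

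The Iroquois homeobox genes, which mark the neural tube caudal to the anterior forebrain, were uniformly higher in Mb. All 4 that were tested passed, with a median of 2.38. Irx1 rose from 3.05, 4.96 and 7.64 FPKM in Fb (lowest, median, highest) to 37.0, 50 and 60.6 in Mb, which is 9.56 times the Fb mean (difference 3.07, adjusted p = 3.09e-07). Irx2 was 6.91 times, Irx5 5.03 times and Irx3 4.26 times as high in Mb. No Mb library overlapped with an Fb library for any of the 4. Irx4 and Irx6 stayed under the 1 FPKM mean.

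Among forebrain and eye-field transcription factors, 19 of 27 tested were higher in Fb, 3 were higher in Mb and 5 did not pass, with a median of -1.50. Six3 (chr17:85613608-85629302, plus strand) read 34.9, 37.1 and 48.9 FPKM in Fb and 0, 0.333 and 1.36 in Mb. The difference was -4.80 (standard error 0.19, adjusted p = 2.63e-09), and no library of one tissue came near the range of the other. Rax, needed for the eye field, was listed at 0 in all 6 Mb libraries and at 5.35 to 19.2 FPKM in Fb. Fezf1 and Fezf2, which pattern the rostral forebrain, differed by -4.0 and -3.41, and Emx2, a dorsal telencephalic factor, by -3.39. Lhx2, a cortical and optic selector gene, was 24.4 times as high in Fb, with 53.2 to 86.3 FPKM there and 0.155 to 9.05 in Mb. The 3 genes of this list that were higher in Mb were Pou3f4 (1.91), Lhx9 (1.59) and Sp9 (1.44). For Lhx9 and Sp9 some Mb libraries overlapped with Fb. Pax6 was called higher in Fb (-1.50, adjusted p = 0.0425), but its 6 Mb values ran from 6.83 to 52.7 FPKM against 46.5 to 65.9 in Fb, and 2 Mb libraries stood high, WT_Mb_3 at 45.9 and WT_Mb_5 at 52.7. Without WT_Mb_5 the difference was -1.79 (adjusted p = 0.00872), and the call was lost without most of the other libraries.

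Of 10 hypothalamic and basal forebrain genes tested, 4 were higher in Fb and 2 higher in Mb. Nkx2-1, the hypothalamic selector, read 7.93, 22.1 and 31.0 FPKM in Fb and 0 to 0.771 in Mb (difference -4.20, adjusted p = 4.37e-07). Nkx2-4 was listed at 0 in all Mb libraries and at 1.03 to 6.41 FPKM in Fb. Fgf10 had a difference of -0.81, and its call was lost without WT_Mb_5 (difference -0.83, adjusted p = 0.0520). Foxb1, which is also expressed outside the hypothalamus, was higher in Mb (1.48). Dlx1, Gsx2, Otp and 5 other listed genes stayed under a mean of 1 FPKM at this stage.

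Some of the largest Fb differences were in genes of the tissue around the neural tube. The retinoic acid-producing enzyme Aldh1a3, of the eye and the olfactory region, was 29.6 times as high in Fb. Of 15 head mesenchyme genes tested, 9 were higher in Fb and 1, Col1a1, was higher in Mb. Twist1, a mesenchymal regulator, was 2.10 times as high in Fb and Prrx1 differed by -1.70. Of 10 surface ectoderm genes, 7 were higher in Fb, among them Epcam (5.25 times) and Cldn6 (-2.40), and 1, Wnt4, was higher in Mb. Of 9 lens and olfactory placode genes, 5 were higher in Fb, including Pitx1 (-3.53) and Dlx5 (-3.27). Of the 9 neural crest genes tested, 4 (Sox9, Sox8, Erbb3 and Tfap2a) were higher in Fb and 1, Ednrb, was higher in Mb.

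The summed level of the 19 head mesenchyme markers was 300.0 to 330.0 FPKM in Fb and 135 to 262 in Mb, and the ranges did not overlap. For 14 surface ectoderm markers it was 92.9 to 163 FPKM in Fb and 35.1 to 60.2 in Mb, and for 11 placode markers it was 57.7 to 88.8 and 19.4 to 44.0. The defining keratins Krt5 and Krt14 stayed under a mean of 1 FPKM. In bulk tissue a lower share of a cell type and less RNA per cell cannot be told apart. The part of these cell types in the other differences, in either direction, was not tested. None of 13 endothelial and none of 13 primitive red cell genes passed the limma test. Over all genes tested 8.26% were called, so a list this short with no call says little. Summed red cell markers varied widely within each tissue, from 5540 to 24000 FPKM in Mb and from 2820 to 24200 FPKM in Fb. None of the 13 mitochondrially encoded genes passed, with a median of 0.02, and the same limit of a short list applies. Of 8 immediate early genes, Ier2 (-0.45) and Ccn1 (-0.62) were higher in Fb, and the tissues overlapped in both. Calls in this list depended on the library set, with 0 higher in Fb without WT_Mb_6 and 3 without WT_Mb_1.

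**Figure D3:**
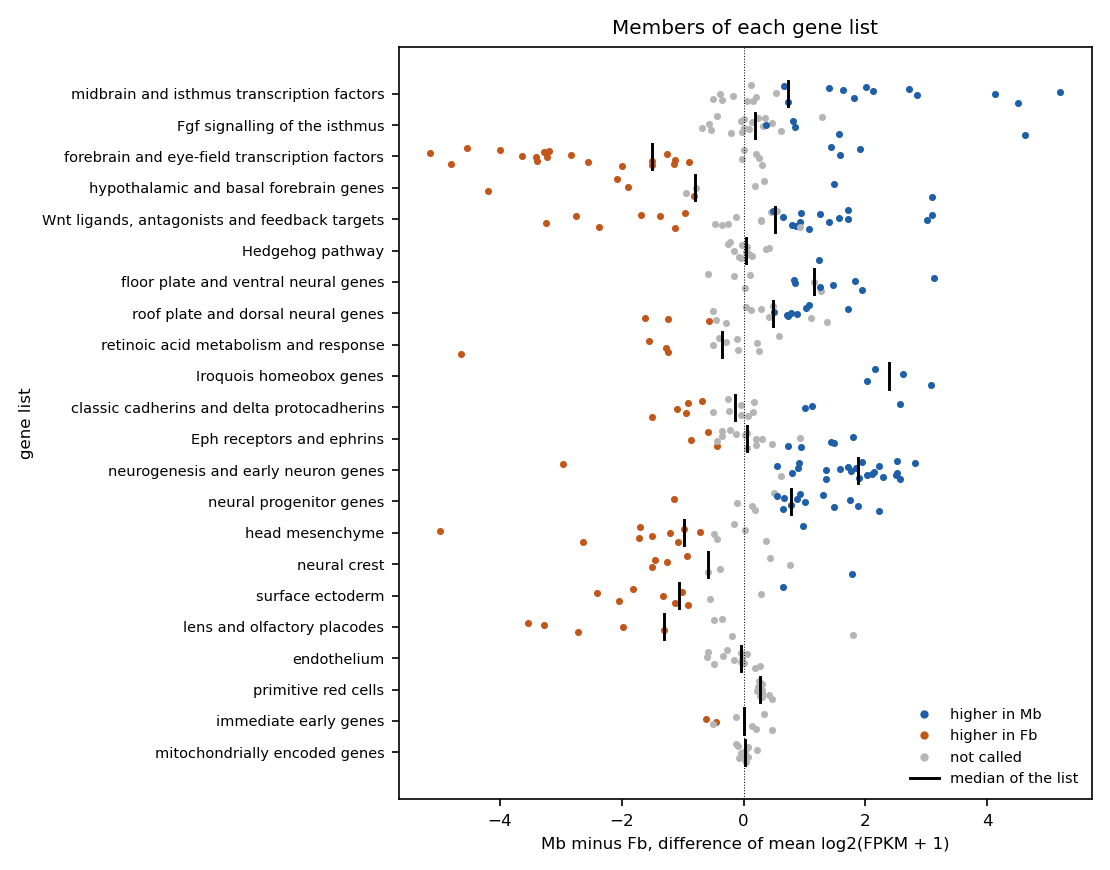
Each point is 1 tested member of a gene list, placed by its difference of mean log2(FPKM + 1), Mb minus Fb, in blue if called higher in Mb, orange if called higher in Fb and grey if not called, and the bar is the median of the list. The list medians run from -1.50 for forebrain and eye-field factors to 2.38 for the Iroquois genes. The 13 endothelial, 13 red cell and 13 mitochondrially encoded genes hold no called member, against 8.26% called over all genes tested.

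Neurogenesis genes were nearly all higher in Mb. Of 24 tested, 22 were higher in Mb, 1 (Lhx5) was higher in Fb and 1 (Isl1) did not pass, with a median of 1.87. Neurog1, which starts neuronal differentiation, read 13.2, 15.2 and 27.5 FPKM in Mb and 0.621, 1.53 and 4.0 in Fb, 9.91 times the Fb mean (adjusted p = 2.31e-05). The Notch ligand Dll3 was 7.94 times as high and Nhlh1, a factor of newborn neurons, 9.24 times. Genes of the neuronal cytoskeleton followed, with Nefm at 7.61 times and Stmn2 at 6.64 times the Fb mean. For Stmn2 the Mb libraries read 16.9, 26.9 and 35.1 FPKM and the Fb libraries 1.66, 3.91 and 6.04. Lhx5, a factor of the forebrain and of specific neurons, ran the other way, with 17.9 to 22.3 FPKM in Fb and 0.495 to 3.77 in Mb. WT_Mb_1 was the lowest Mb library in 18 of the 24 genes (75.0%), against 15.8% over all genes tested. Its median was -0.85 against the mean of the other 5, and 21 genes were called higher in Mb without WT_Mb_1. The calls of Dll1 (difference 0.90 with and 0.84 without, adjusted p = 0.0751) and Gap43 (0.55 and 0.53, adjusted p = 0.0895) were lost without WT_Mb_5.

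The promoters of 4 of these genes are shown because the genes rose together in Mb and hold the E-box CAGCTG, a motif that basic helix-loop-helix proteins are known to bind. The windows are from RefSeq on GRCm38.p6, 250 bases before to 50 after the start, 5′ to 3′ on the strand of the gene, with CAGCTG in capitals. They lie at chr7:28301736-28302035 (Dll3, minus strand), chr10:130280089-130280388 (Neurod4, minus strand), chr3:102009895-102010194 (Nhlh2, plus strand) and chr14:104467950-104468249 (Pou4f1, minus strand).
Dll3: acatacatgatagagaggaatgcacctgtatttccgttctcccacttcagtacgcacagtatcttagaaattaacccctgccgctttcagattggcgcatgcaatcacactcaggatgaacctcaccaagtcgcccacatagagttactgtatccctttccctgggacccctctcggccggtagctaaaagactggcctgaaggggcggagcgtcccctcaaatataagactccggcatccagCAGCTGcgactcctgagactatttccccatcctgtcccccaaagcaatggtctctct
Neurod4: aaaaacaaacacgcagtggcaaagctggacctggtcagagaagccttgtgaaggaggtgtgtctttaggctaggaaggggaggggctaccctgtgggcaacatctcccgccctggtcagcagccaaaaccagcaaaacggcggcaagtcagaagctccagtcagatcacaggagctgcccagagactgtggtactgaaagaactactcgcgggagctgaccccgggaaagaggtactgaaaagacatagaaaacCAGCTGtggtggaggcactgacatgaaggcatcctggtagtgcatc
Nhlh2: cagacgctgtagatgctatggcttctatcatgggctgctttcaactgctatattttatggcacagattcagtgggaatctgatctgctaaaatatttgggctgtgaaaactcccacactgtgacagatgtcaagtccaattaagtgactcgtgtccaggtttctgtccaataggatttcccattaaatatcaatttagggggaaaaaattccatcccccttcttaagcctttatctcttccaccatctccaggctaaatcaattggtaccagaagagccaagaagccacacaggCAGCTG
Pou4f1: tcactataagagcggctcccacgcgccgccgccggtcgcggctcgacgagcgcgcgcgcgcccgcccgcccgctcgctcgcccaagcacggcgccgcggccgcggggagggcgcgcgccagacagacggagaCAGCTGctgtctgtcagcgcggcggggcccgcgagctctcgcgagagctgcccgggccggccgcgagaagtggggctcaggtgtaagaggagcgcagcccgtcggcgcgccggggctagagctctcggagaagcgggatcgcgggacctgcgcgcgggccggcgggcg
Nhlh2 and Neurod4, both factors of newborn neurons, averaged 5.97 ± 2.55 and 4.81 ± 1.78 FPKM in Mb (SD, n = 6), and Pou4f1, a factor of sensory and midbrain neurons, averaged 10.6 ± 5.05 (SD, n = 6). Their Fb means were 0.4, 0.307 and 0.955 FPKM, and no Mb library overlapped with Fb in any of the 3. CAGCTG reads the same on both strands and occurred in 16.3% of all 32851 promoter windows, in 20.4% of those of genes higher in Mb and in 11.4% of those of genes higher in Fb. Of the 22 neurogenesis genes higher in Mb, 17 had 29 windows in all, and 14 of these (48.3%) held the motif, against 14.5% of the windows of tested genes that were not called. Windows of 1 gene can overlap. The motif was picked from 9 after their shares had been seen, so these shares are a description, and a match of letters does not show binding.

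Neural progenitor genes were also shifted to Mb, with 12 of 17 higher in Mb and 1, Hes1, higher in Fb (median 0.77). Hes5 and Hes1, both Notch effectors, went in opposite directions. Hes5 read 66.1, 98.9 and 145 FPKM in Mb and 16.2, 25.4 and 39.0 in Fb (difference 1.87, adjusted p = 0.000105). Hes1 read 16.0, 22.2 and 36.7 FPKM in Mb and 49.0, 52.6 and 54.1 in Fb (difference -1.14, adjusted p = 0.000223). Fabp7, a radial glia fatty acid binding protein, was 4.51 times as high in Mb, and the intermediate filament genes Vim and Nes were 1.92 and 1.71 times as high. Sox1, Sox2, Sox3 and Notch1 did not pass, with differences of -0.11, 0.19, 0.13 and 0.50.

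The Wnt pathway was split between the tissues. Of 30 genes tested, 14 were higher in Mb and 7 higher in Fb (median 0.52). Among the ligands, Wnt1 (chr15:98789857-98793837, plus strand) read 13.7, 17.6 and 25.1 FPKM in Mb and 0.203, 1.14 and 2.30 in Fb, 13.9 times the Fb mean (adjusted p = 1.57e-06), and Wnt3a was 5.26 times as high in Mb. Wnt7b and Wnt8b, ligands of the forebrain and its dorsal midline, were 7.96 and 14.1 times as high in Fb, and Wnt5b was 2.09 times as high there. The receptors divided as well. Fzd10 was 9.37 times as high in Mb, with 40.2 to 60.9 FPKM against 4.13 to 6.95, whereas Fzd5 (-2.38) and Fzd8 (3.69 times) were higher in Fb. Among feedback targets and inhibitors of the pathway, Axin2 was 2.11 times, Sp5 3.74 times and Nkd1 3.13 times the Fb mean in Mb. Lef1, Nkd2 and Dkk1 did not pass, with differences of 0.54, -0.36 and -0.12. The agonists Rspo2 and Rspo3 were higher in Fb (-1.13 and -1.37).

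Shh, the ventral signal, did not pass the test. It read 7.86, 13.0 and 17.5 FPKM in Mb and 8.2, 14.0 and 16.5 in Fb (difference -0.08, adjusted p = 0.884). Of 13 Hedgehog pathway genes, only the coreceptor gene Boc passed (2.7 times as high in Mb), which is near the 8.26% called over all genes tested. Ptch1 and Gli1, which report Hedgehog signalling, had differences of 0.09 and -0.16. In the floor plate and ventral list, 7 of 13 genes were higher in Mb and 0 in Fb (median 1.15). The homeobox genes Nkx6-2 and Nkx6-1 were 9.94 and 4.76 times as high in Mb, the guidance cue Ntn1 2.83 times, and the floor plate factor Foxa2 2.72 times. For Nkx6-2 the Mb range was 20 to 36.8 FPKM and the Fb range 1.15 to 8.08. Calls of Foxa1 and Spon1 were lost without WT_Mb_5 (adjusted p = 0.0542 and 0.0692), although their differences went from 0.83 to 0.86 and from 0.84 to 0.87. In contrast, Nkx2-9, read at 13.5 to 21.5 FPKM in 5 Mb libraries and at 2.23 in WT_Mb_5, was newly called without it (difference 1.55, adjusted p = 0.000381).

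Dorsal genes went both ways, with 8 of 21 higher in Mb and 3 higher in Fb. The roof plate genes Msx1 (2.08 times) and Gdf7 (1.72) and the Bmp target Id2 (2.14 times) were higher in Mb. Bmp4 (4.15 times), Bmp7 (-0.56) and Id4 (2.80 times) were higher in Fb. In the retinoic acid list, 4 of 12 were higher in Fb and 0 in Mb, among them Aldh1a3 and the receptors Rarg (3.17 times) and Rarb (3.30 times).

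The adhesion genes that the study deletes in its mutants were read in WT tissue by the same test and by a two-sided exact permutation test, whose p-values are not adjusted. Cdh8 (chr8:99024471-99416471, minus strand) read 1.14, 4.6 and 10.1 FPKM in Mb and 0.840, 1.46 and 1.96 in Fb. Of the Mb libraries, 5 lay above all Fb libraries, and WT_Mb_1, at 1.14 FPKM, lay within the Fb range. The Mb mean was 3.39 times the Fb mean (difference 1.13, standard error 0.31, limma adjusted p = 0.0393, exact permutation p = 0.0108, where 924 splits allow 0.00216 at the least). The call rested on the library set. Without WT_Mb_5, the highest, the difference was 0.92 (limma adjusted p = 0.0694), without WT_Mb_1 it was 1.39 (limma adjusted p = 0.00171), and leaving out any of the other 10 libraries in turn also left it above the threshold (limma adjusted p from 0.0538 to 0.0862). Cdh6 read 1.04 to 3.55 FPKM in Mb and 2.04 to 4.0 in Fb (difference -0.25, exact permutation p = 0.264), and Cdh11 read 17.9 to 28.7 and 19.5 to 25.3 (difference -0.05, exact permutation p = 0.671). Cdh2, the cadherin of all neuroepithelial cells, had a difference of 0.16 (limma adjusted p = 0.245).

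Among 16 classic cadherins and delta protocadherins, 3 were higher in Mb and 5 higher in Fb. Pcdh8, a protocadherin of early neural tissue, was 7.18 times as high in Mb, with 14.5 to 33.3 FPKM against 1.46 to 6.13, and Cdh22 differed by 1.01. Cdh1 and Cdh3, both epithelial cadherins, were higher in Fb (-1.50 and -0.91), beside the surface ectoderm markers above, and so were Pcdh19 (2.94 times), Pcdh1 (2.14 times) and Cdh20 (-0.69). Eph receptors and ephrins held 5 of 21 genes higher in Mb and 3 higher in Fb. Efna2, a repulsive axon guidance ligand of the midbrain, read 81.5, 94.5 and 124 FPKM in Mb and 20.9, 27.4 and 33.3 in Fb (3.55 times, adjusted p = 6.23e-07), and Efnb3 was 2.80 times as high in Mb. Epha4 was 2.02 times as high in Fb.

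Outside the lists, the largest differences included secreted products. Trh, the precursor of thyrotropin-releasing hormone, read 19.8, 53.7 and 83.8 FPKM in Mb and 1.56, 2.75 and 6.62 in Fb (14.4 times, adjusted p = 1.91e-05), and Wfdc1, a secreted protease inhibitor, was 21.6 times as high in Mb. In Fb, Dlk1, an imprinted Notch-like ligand, read 257, 301 and 397 FPKM against 8.48, 11.4 and 16.7 in Mb (25.8 times, adjusted p = 1.05e-09). The difference of largest size in each direction belonged to a short pseudogene. Gm3788 was 0 in 4 Mb libraries and 325 and 450.0 FPKM in the other 2, and Gm12013 was 0 in all Fb libraries and in WT_Mb_1 and at 128 to 183 in the other 5 Mb libraries. Reads of such copies can be shared with their parent genes, and in the mutant libraries the difference of Gm12013 was -3.95 (adjusted p = 0.0915), opposite in sign to WT. The Gm3788 call was lost without WT_Mb_5 (adjusted p = 0.0558), so both are uncertain.

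Of 705 noncoding genes tested, 64 were called (36 higher in Mb, 28 higher in Fb), which is 9.08% against 8.26% of all genes. Of the 64, 31 (48.4%) start within 100 kb of a called coding gene, against 133 (20.7%) of the 641 that were not called. The 31 form 37 pairs, of which 36 differ in the same direction. The 133 uncalled genes form 148 pairs, of which 85 (57.4%) do. Six3os1, transcribed against Six3 with starts 4.79 kb apart, read 27.2 to 39.1 FPKM in Fb and 0 to 1.13 in Mb (difference -4.66), next to -4.80 for Six3. C130093G08Rik differed by -3.75 and starts 2.77 kb from Fezf1 (-4.0). Raxos1 (-2.08) lies 2.25 kb from Rax and Meg3 (3.15 times as high in Fb) lies 88.2 kb from Dlk1. The libraries were directional, but gene bodies overlap in 19 of the 37 pairs, and the strand setting of the FPKM step is not given in the sources used here.

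WT_Mb_5 was examined by itself, because the isthmic genes were low in it. En1 was 3.57 FPKM in this library against 32.0 to 59.0 in the other 5 Mb libraries, En2 was 8.35 against 36.6 to 74.7, and Pax5 was 3.90 against 16.1 to 26.0. Pax8 was 0.319 against 5.05 to 18.2, and Fgf8 and Fgf17 were listed at 0 against 6.23 to 24.6 and 3.23 to 20.3. Etv4 and Spry1, both induced by Fgf signalling, were 0.520 against 4.39 to 13.4 and 2.51 against 13.1 to 24.6. Across the 22 genes of the Fgf list, WT_Mb_5 was the lowest Mb library in 16 (72.7%), with a median of -1.10 against the mean of the other 5, whereas over all genes tested it was the lowest in 15.7%. In the list of midbrain and isthmus transcription factors WT_Mb_5 was the lowest in 7 of 21 (33.3%) and the highest in 4 (19.0%). Over all genes tested it was the highest in 14.9%.

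Over the 622 genes called higher in Mb, WT_Mb_5 was the lowest Mb library in 97 (15.6%) and the highest in 145 (23.3%). WT_Mb_1 was the lowest in 35.0% and WT_Mb_2 the highest in 33.3%. Over all genes tested WT_Mb_5 was the lowest in 15.7% and the highest in 14.9%. There WT_Mb_1 was the lowest in 15.8% and WT_Mb_2 the highest in 23.7%. The 622 genes were called with WT_Mb_5 in the fit, which favours genes where it is high. The shares therefore do not show how WT_Mb_5 sits on genes chosen without it. Trh, at 19.8 FPKM, was the lowest of the 6, and others were not low. Wnt1 was 14.0 FPKM, within the 13.7 to 25.1 of the other libraries, and Hes3 was 18.8, within 15.9 to 41.5. Irx1 at 60.6 and Fzd10 at 60.9 were the highest of the 6, and so was Pax3 at 23.1. Of the 27 forebrain and eye-field factors, WT_Mb_5 was the highest Mb library in 11 (40.7%) and the lowest in 5 (18.5%). Its median was -0.05 against the mean of the other 5. Of the genes called or listed for the forebrain, Pax6 was 52.7 FPKM against 6.83 to 45.9 in the other Mb libraries, Barhl2 was 6.61 against 0.196 to 1.27, Wnt8b was 4.57 against 0.113 to 0.769 and Lhx2 was 9.05 against 0.155 to 2.86. Rax and Nkx2-1 were listed at 0, so these eye and hypothalamic markers were not high with them. Six3, at 1.36, was the highest of the 6 Mb libraries and far below the 34.9 FPKM of the lowest Fb library.

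**Figure D4:**
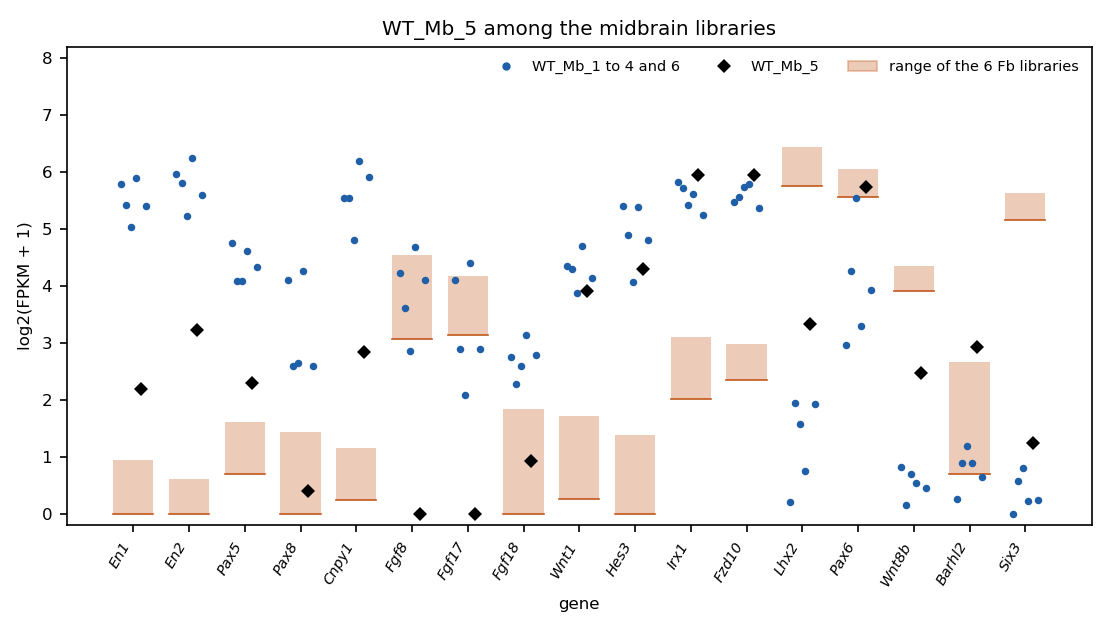
The log2(FPKM + 1) of 17 genes is shown in WT_Mb_5 (black diamonds), in the other 5 Mb libraries (blue points) and as the range of the 6 Fb libraries (orange bands). WT_Mb_5 lies below the other Mb libraries for En1 to Fgf18, among or above them for Wnt1, Hes3, Irx1 and Fzd10, and above them for Lhx2, Pax6, Wnt8b and Barhl2.

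Leaving out WT_Mb_5 gave 921 calls among 13318 genes (6.92%), 521 higher in Mb and 400 higher in Fb. Of these, 862 were among the 1102 called with all libraries, which is 78.2% of the larger list and 93.6% of the smaller. All 1092 called genes that were tested both ways kept their direction. Leaving out another Mb library gave 870 to 1317 calls, so the count without WT_Mb_5 was within that range. The differences of genes low in the library were larger without it. The En1 difference went from 4.51 to 5.07, that of En2 from 5.20 to 5.62 and that of Pax8 from 2.12 to 2.60. Without the library 6 listed genes were newly called (Fgf18, Dusp4, Nkx2-9, Barhl2, Crabp1 and Rara), and 9 lost the call (Cdh8, Dll1, Fgf10, Fgfr2, Foxa1, Gap43, Hesx1, Pax7 and Spon1).

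Each library was also placed between the tissues on the genes called without it, with 0 the mean of the other Fb libraries and 1 the mean of the other Mb libraries. On genes higher in Mb, WT_Mb_5 stood at 0.98, and on genes higher in Fb it stood at 1.0, so over these 521 and 400 genes it lay at the mean of the other Mb libraries. WT_Mb_1 stood at 0.75 and 0.49, farther from the Mb mean than any other Mb library on both axes. The other Mb libraries ran from 0.88 to 1.19 and from 0.85 to 1.06, and the Fb libraries from -0.14 to 0.14 and from -0.08 to 0.13. Without WT_Mb_1, 1317 genes were called, 627 higher in Mb and 690 higher in Fb.

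**Figure D5:**
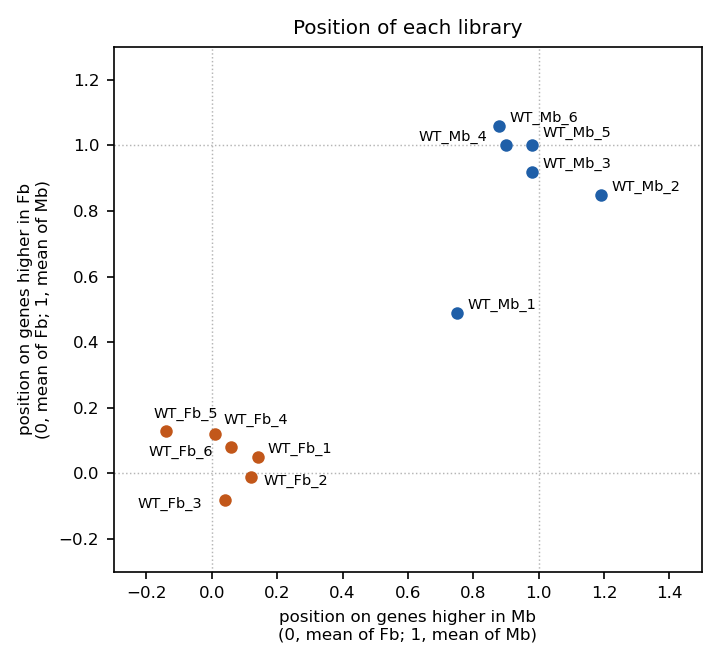
Each of the 12 WT libraries is placed by its position on genes higher in Mb (horizontal) and on genes higher in Fb (vertical), where 0 is the mean of the other Fb and 1 the mean of the other Mb libraries. WT_Mb_5 lies at 0.98 and 1.0 with the other Mb libraries, and WT_Mb_1 lies at 0.75 and 0.49.

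The mutant libraries offer the same contrast in 10 Mb and 10 Fb libraries that share no sample with WT. There, with genotype as a term, 1340 of 13452 genes were called (9.96%). Of 1087 genes called in WT and tested in mutants, 1045 (96.1%) differed in the same direction, against 65.1% of 11973 genes not called in WT. In all, 717 genes were called in both with the same sign, which is 65.1% of the WT list and 53.5% of the mutant list, and 0 were called with opposite signs. En1 and En2 differed by 5.23 and 5.67 in mutants, Six3 by -5.08, Wnt1 by 2.68 and Dlk1 by -4.90. Fgf8 (-0.40) and Fgf17 (0.68) did not pass there either. Of the 6 listed genes newly called in WT without WT_Mb_5, Barhl2 (-1.78), Fgf18 (1.63), Nkx2-9 (1.15) and Dusp4 (0.53) passed in the mutant libraries, with adjusted p of 0.00307, 9.66e-05, 0.000478 and 0.00922. Crabp1 (0.02, adjusted p = 0.953) and Rara (-0.33, adjusted p = 0.0924) did not.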

How the data were processed

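Total RNA of dissected forebrain and midbrain was made into directional libraries and sequenced on an Illumina HiSeq. Per the labels and methods, the authors aligned reads with TopHat2 to GRCm38 (mm10) and deposited FPKM values per gene from Cufflinks. HTSeq counts for DESeq2 are not analysed here. Samples were grouped by their labels. For the double-knockout samples, the deposited column headings name the other double-knockout group than the labels do. These samples were used only together, with genotype as a term. Values of 65 repeated identifiers were summed, and 48218 of 48576 identifiers were located in GENCODE M21.

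FPKM is not a count, so differences were tested on log2(FPKM + 1) with limma 3.58.1 (moderated linear model with a mean-variance trend, R 4.3.3) over genes whose mean reached 1 FPKM, with Benjamini-Hochberg adjustment and a threshold of 0.05. Cdh6, Cdh8 and Cdh11 were also tested by exact permutation (SciPy 1.17.1). The scripts were tested on simulated data. Library depth was inferred from 771 genes with 1 transcript, whose low FPKM values are spaced by what 1 fragment is worth, and 79.0 to 88.6% of these values lay within 0.1 of a whole fragment. A listed 0 can be a failed estimate. Ratios divide mean FPKM and were not formed where the lower mean is near 0.

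Named genes are core regional genes, the 12 largest differences in each direction, up to 3 members per list and direction, members behind a count of 5 or fewer, and the 5 top noncoding pairs. Some genes that the rule selects are not reported here. Other genes were chosen after their values were seen, including those in the account of WT_Mb_5 and in the observations. The members and lists were chosen with earlier results of these data known. Alternatives varied the pseudocount, filter, scaling, trend, replicate block and libraries.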

Additional observations from a re-analysis of the deposited data

Results flagged for a closer look

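A library was listed here when its gap to the nearest of the other 5 of its group, divided by the whole range of the group, was above Dixon's critical value for 6 samples. Of 232 groups examined, 16 met this, where chance gives about 1 in 20, or 11.6. The numbers by tissue were 11 in Mb and 5 in Fb, and WT_Mb_5 held 5 of them. WT_Mb_5 was singled out for its low isthmic genes, so En1, En2 and Pax5 below restate that choice.

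In WT_Mb_5, En1 was 3.57 FPKM with the others at 32.0 to 59.0, En2 was 8.35 with the others at 36.6 to 74.7, and Pax5 was 3.90 with the others at 16.1 to 26.0. Wnt8b was high there, at 4.57 FPKM with the others at 0.113 to 0.769, and Pou3f2 was 29.9 with the others at 25.1 to 26.5. WT_Mb_3 was high for Aldh1a3, at 7.23 FPKM with the others at 0 to 1.17, and for Dlx6, at 0.167 with the others at 0. WT_Mb_6 was high for Nkx2-1, at 0.771 FPKM with the others at 0 to 0.178, and WT_Mb_4 for Raxos1, at 0.154 with the others at 0. Where the other libraries are at 0 any value above 0 is listed, and the levels of Dlx6 and Raxos1 are low.

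Among Fb libraries, WT_Fb_3 was low for Nkx2-1, at 7.93 FPKM with the others at 20.4 to 31.0, and for Fzd5, at 5.60 with the others at 7.41 to 8.40. It was high for Fgf17, at 17.2 FPKM with the others at 7.80 to 10.5, and for Cnpy1, at 1.24 with the others at 0.184 to 0.5. WT_Fb_5 was high for En2, at 0.520 FPKM with the others at 0 to 0.113.

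WT_Mb_1 was listed for its position on genes higher in Fb, 0.49 with the other Mb libraries at 0.85 to 1.06, and for the pseudogene Gm12013, at 0 FPKM with the others at 128 to 183.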

How the results depend on the processing

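The count of 1102 calls ran from 1064 to 1310 with a pseudocount of 0.1 or 5, no filter, another scaling, no mean-variance trend, all 32 libraries in the fit, or a sex term chosen after seeing the data. It was 717 (386 higher in Mb) at a mean of at least 5 FPKM and 429 (268 higher in Mb, 161 higher in Fb) at a log2 difference of at least 1. Leaving out 1 library gave 870 to 1317 calls, with 490 to 627 higher in Mb and 360 to 690 higher in Fb. The highest counts came without WT_Mb_1. Of 111 called genes that the naming rule selects, 97 kept the call in every setting that tested them, 14 lost it in at least 1 and 0 reversed. Of the 111, 78 were tested in all 22 settings, and 71 of these kept the call. For Cdh8 the difference of 1.13 had adjusted p = 0.0728 with no filter and 0.0928 with the replicate block, and leaving out 1 library gave 0.92 to 1.39. For Cdh11, leaving out 1 library gave -0.13 to 0. For the uncalled Fgf8 the range was -0.85 to 0.08 (highest without WT_Mb_5), and for the uncalled Shh it was -0.21 to 0.03 (highest without WT_Mb_4). In TKO6.8.11 libraries only, 92.8% of WT-called genes had the same sign. The causes were not tested. The replicate block gave 893 calls (489 higher in Mb, 404 higher in Fb). The main test and the exact permutation test did not pair libraries by number. The correlation between an Fb and an Mb library was 0.91 to 0.932. A separate correlation, on another scale and used only to compare replicate numbers, was 0.024 to 0.097 for the same number. By this second measure 10 of 12 libraries correlated best with their own number, and the sex-linked genes matched in 6 of 6. Fb and Mb of 1 number may therefore come from 1 embryo, which was not tested. With the block 9 named genes lost the call, among them Pax6 (limma adjusted p = 0.0703) and Pax7 (limma adjusted p = 0.099). Depth near 2.713 M fragments limits genes near 1 FPKM.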

Other observations

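Several genes of the imprinted Dlk1 to Meg3 region on chromosome 12 were higher in Fb. Beside Dlk1 (-4.60) and Meg3 (-1.63), the noncoding genes Rian (-1.57) and Mirg (-1.76) and the retrotransposon-derived gene Rtl1 (-1.07) passed the limma test. Rian was 2.95 times and Mirg 3.37 times as high in Fb.

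Besides Trh, 2 other neuropeptide genes were higher in Mb, Sst with a difference of 2.93 and Cck with 2.53, and Cck was listed at 0 in all 6 Fb libraries. Dmbx1, a homeobox gene of the midbrain, was 9.32 times as high in Mb, and Phox2a, a factor of oculomotor neurons, had a difference of 2.37. Olig2 was 10.8 times and Dmrta2 11.8 times as high in Fb.

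The Mb libraries differed in caudal and dorsal genes. Msx3, a dorsal homeobox gene, read 21.6 FPKM in WT_Mb_1 and 14.9 in WT_Mb_4 and at most 0.211 in the other 4 Mb libraries (adjusted p = 0.358 against Fb). Olig3, a dorsal progenitor factor, was also highest in these, at 11.5 and 3.35 FPKM, and Gbx2, a gene of the anterior hindbrain, was 14.1 and 11.6 there and 0.790 to 5.90 in the others. Pax8 was 16.3 and 18.2 FPKM in WT_Mb_1 and WT_Mb_4 and 0.319 to 5.24 in the others. These libraries were picked by their values, so no test was made between them.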
